A study of Mus musculus with 12 samples.

Results

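Nuclear receptors other than the PPARs are described here in cultured adipocyte progenitors that lacked or overproduced the microRNA miR-26. The 35 genes were taken by family membership and matched by gene symbol, a rule that reads no measured value, although the family was picked with earlier results of these data known. Of these, 32 were among the 19429 genes listed in either of the 2 expression tables, 31 in each table and 30 in both, and 28 in each table passed the filter on low values described below. Stromal vascular fraction (SVF) cells, the mixed non-adipocyte cells of white adipose tissue, came from C57BL/6 mice of 6 weeks and were grown to confluency as primary cultures. The first experiment compared 3 wild-type cultures (WT) with 3 triple-knockout cultures (TKO) whose cells lacked all 3 miR-26 genes (miR-26b-/-, miR-26a-1-/- and miR-26a-2-/-). In the second, cells carrying the doxycycline-dependent activator M2rtTA and an eGFP.miR-26a transgene were kept for 4 days without (CTL, 3 cultures) or with (Dox, 3 cultures) doxycycline at 1 mg/ml. Both CTL and Dox cells thus carried the transgenes, and no library came from cells with doxycycline but without the transgene. Whether the cultures of a group came from different animals is not stated, so p-values measure only the spread between these cultures.

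Nuclear receptors are transcription factors that share a zinc-finger DNA-binding domain and, in most members, a ligand-binding domain. Steroids, retinoids, thyroid hormone, vitamin D and oxysterols switch some of them on. Others, called orphan receptors, act without a known natural ligand or are controlled by how much of the protein is made. They recruit coactivators or corepressors, which modify chromatin. In adipose progenitors the family is known for roles in the commitment of cells to the adipocyte lineage, alongside PPARγ, which heterodimerises with the retinoid X receptors.

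Values are the deposited signal, read counts as CPM (scaled to a common library total) and divided by a factor for each library. Libraries held 54978109 to 83461531 reads in the WT and TKO cultures and 19301969 to 25785439 in the CTL and Dox cultures. A gene was tested where its signal reached 1 in at least 3 of the 6 libraries of a table. Differences are on the log2(signal + 1) scale, tested with limma, and a gene passed where its Benjamini-Hochberg adjusted p over all genes tested was below 0.05. All 10 progenitor markers were listed and tested in both tables, but the cultures differed in marker levels. The summed signal of the progenitor markers was 4905 to 5210 in WT and 3922 to 4175 in TKO. Abundant markers such as Itgb1 (1943 to 2140 in WT) weigh most in that sum. Of the 10 markers, 3 fell in TKO and 6 did not pass. The other, Icam1, rose (1.11 ± 0.17 SE on the log2 scale, limma adjusted p = 0.0026). Summed signal of 7 adipocyte markers, of which 6 were listed, was 119.0, 116.4 and 30.18 in TKO replicates 1, 2 and 3, against 28.74 to 31.82 in WT. That of 8 macrophage markers was 261.8 in TKO replicate 2, against 36.88 to 60.43 in the other 5 libraries. In the transgenic cultures, 6 epithelial markers, 5 of them listed, summed to 178.3 and 191.7 in CTL and Dox replicate 1 and to 5.423 to 46.93 elsewhere. In such bulk RNA, fewer cells of a type and less RNA per cell cannot be told apart, and the part of these cell types in the results was not tested.

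The miR-26 family is what both experiments changed. Its mature sequences (RefSeq, GRCm38.p6) share the seed, bases 2 to 8, which is shown in capitals. The genes lie on chromosomes 9 and 10 for miR-26a and on chromosome 1 for miR-26b.
mmu-miR-26a-5p: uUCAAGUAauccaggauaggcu
mmu-miR-26b-5p: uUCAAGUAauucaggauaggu
Both carry the same seed, UCAAGUA. Matches to it were sought in the 3′UTR of each member (GENCODE vM21 transcripts, GRCm38). An 8mer is the whole match TACTTGAA, a 7mer-m8 is TACTTGA and a 7mer-A1 is ACTTGAA. Of the 28 tested members, 4 held a match, as did 21.8% of the 11834 tested genes with an annotated 3′UTR. These were Rorb, Esr1, Nr3c1 and Pgr, and Pgr had the only 8mer, against 5.09% of those genes. Esr2 and Esrrg, which were too low to test, held a 7mer-A1 each. The matches are shown in their surroundings, in capitals, for the tested members other than Nr3c1, since they are the places where the family could pair with these transcripts.
Rorb 7mer-m8, chromosome 19, exon 10: cttactgtgtcTACTTGAtgttccccttt
Pgr 8mer, chromosome 9, exon 8: aacaaaggaaaTACTTGAAgcttagatgat
Pgr 7mer-A1, chromosome 9, exon 8: acttatatgcaACTTGAAtgagataagtg
Esr1 7mer-A1, chromosome 10, exon 10: tggtcgtcgagACTTGAAttaataagtga
No tested member with a match passed as higher in TKO cells, though Esr1 did without TKO replicate 1 (limma adjusted p = 0.046). Rorb and Nr3c1 fell, and Esr1 and Pgr had differences of 0.26 ± 0.42 and 0.02 ± 0.40 (log2, ± SE). Neither fall was called with the trend on transcript length and GC content removed. Rorb was then at -0.29 (limma adjusted p = 0.26) and Nr3c1 at -0.01 (0.96). A match is a stretch of letters and not a measured binding site.

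Levels spanned a wide range across the family. Signal was divided by the length of 1 annotated transcript per gene, and the order depends on this choice. For Nr2f2 that length was 4222 bases, against 8625 exon bases over all its transcripts. Signal per kilobase of transcript (n = 3 cultures, ± SD) was highest in WT for Rarg (28.6 ± 1.13), the retinoic acid receptor γ. The thyroid hormone receptor Thra (23.98 ± 2.19) and the glucocorticoid receptor Nr3c1 (23.5 ± 1.69) came next. These were followed by the liver X receptor Nr1h2 (19.5 ± 3.36), the orphan receptor Nr2f2, also called COUP-TFII (18.4 ± 1.01), the immediate-early receptor Nr4a1 and the progesterone receptor Pgr (17.4 ± 4.23). Thra and Nr3c1 differed by less than the larger of their SDs, as did each neighbouring pair from Nr1h2 to Pgr. In TKO, Thra (26.7 ± 6.23), Nr1h2 (23.9 ± 3.41) and Rarg (21.8 ± 1.44) led. Rarg, Nr1h2 and Thra also led in CTL (32.7 ± 5.92, 31.3 ± 2.45 and 31.0 ± 5.64) and in Dox (29.5 ± 5.05, 30.7 ± 3.57 and 26.04 ± 8.54), within a SD of each other in CTL. At the other end, Nr0b1, Nr5a2 and Nr1i3 were listed in neither table, Esrrb not in that of WT and TKO, and Esr2 not in that of CTL and Dox. Every listed gene had reads in all 6 libraries of its table, so a gene that is not listed may still have had reads in some. Rxrg and Esrrg were below the filter in both tables, Esr2 in that of WT and TKO and Esrrb in that of CTL and Dox. No signal of these 4 receptors was above 0.57 in any library.

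**Figure D1:**
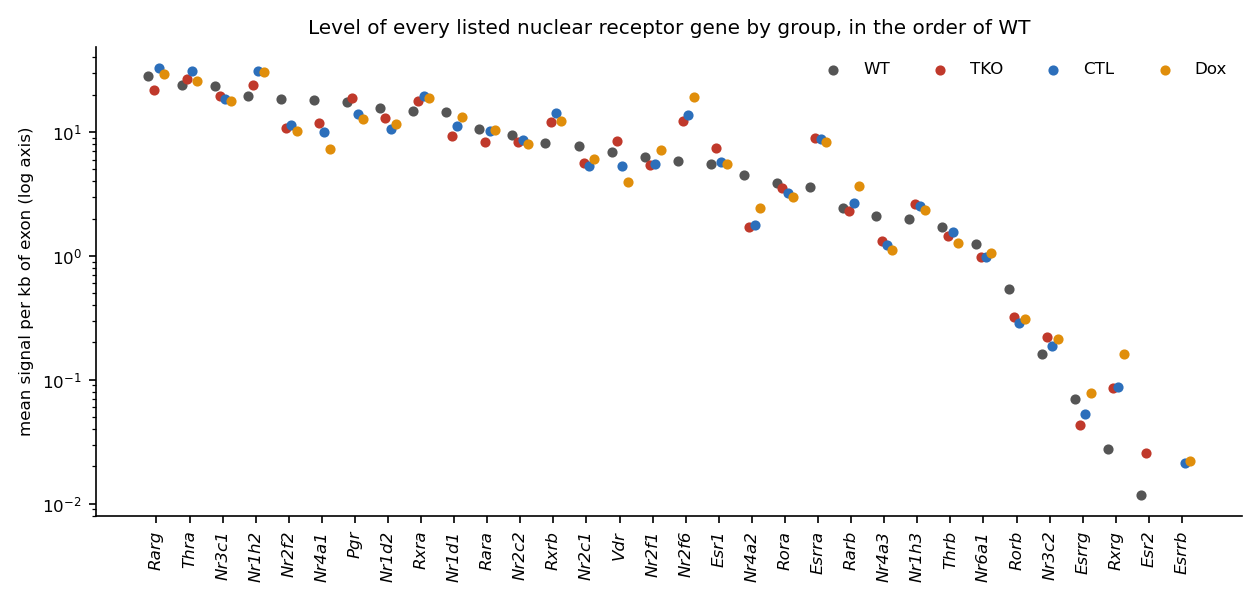
Mean signal per kilobase of exon (log axis) of the 32 listed receptor genes in the 4 groups, ordered by WT; each point is the mean of 3 cultures. Rarg, Thra, Nr3c1 and Nr1h2 lie at the top in WT. The tables of WT with TKO and of CTL with Dox were normalised separately, so heights across that border are set side by side only.

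Loss of miR-26 came with lower levels of more receptors than higher ones. Of the 28 tested members, 12 passed in TKO against WT (42.9%), which was near the 45.8% of all 12649 genes tested. Of these, 3 rose, Esrra, Nr2f6 and Rxrb (all genes, 23.2%), and 9 fell, Nr4a2, Nr2f2, Nr1d1, Rorb, Nr4a3, Nr2c1, Rarg, Rara and Nr3c1 (all genes, 22.7%). The other 16 did not pass. Without WT replicate 1 or 3, 5 fell. Without TKO replicate 1, 4 rose and 11 fell, and without TKO replicate 3, 6 rose. The median difference was -0.20 over the members and 0.00 over all genes tested. With the trend on transcript length and GC content removed, the members' median was -0.04 and 3 rose and 7 fell. With scaling to library size, which moved the median of all genes to 0.11 and the share of higher calls among all called genes from 50.6% to 66.7%, 4 members rose and 6 fell, with a median of -0.08. The 3 that rose had transcripts of 2218 to 2627 bases with 61.4% to 67.3% GC, the 9 that fell 2721 to 9293 bases with 41.6% to 59.2% GC. The median gene tested had 3154 bases and 49.9% GC. Esrra, Nr2f6, Nr4a2, Nr2f2, Nr1d1, Nr2c1 and Rarg passed in each of 15 alternative analyses and Rxrb in 14. Nr3c1 passed in 9, Nr4a3 and Rara in 7 and Rorb in 5. In 16 of the tested members the libraries of TKO and WT did not overlap, against 58.8% of all genes tested. In the authors' deposited table of the same comparison, 10 listed members had a false discovery rate below 0.05: Esrra, Nr2f6, Rxrb and Rxrg were higher, and Nr4a2, Nr2f2, Nr1d1, Nr2c1, Rarg and Nr4a3 lower.

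**Figure D2:**
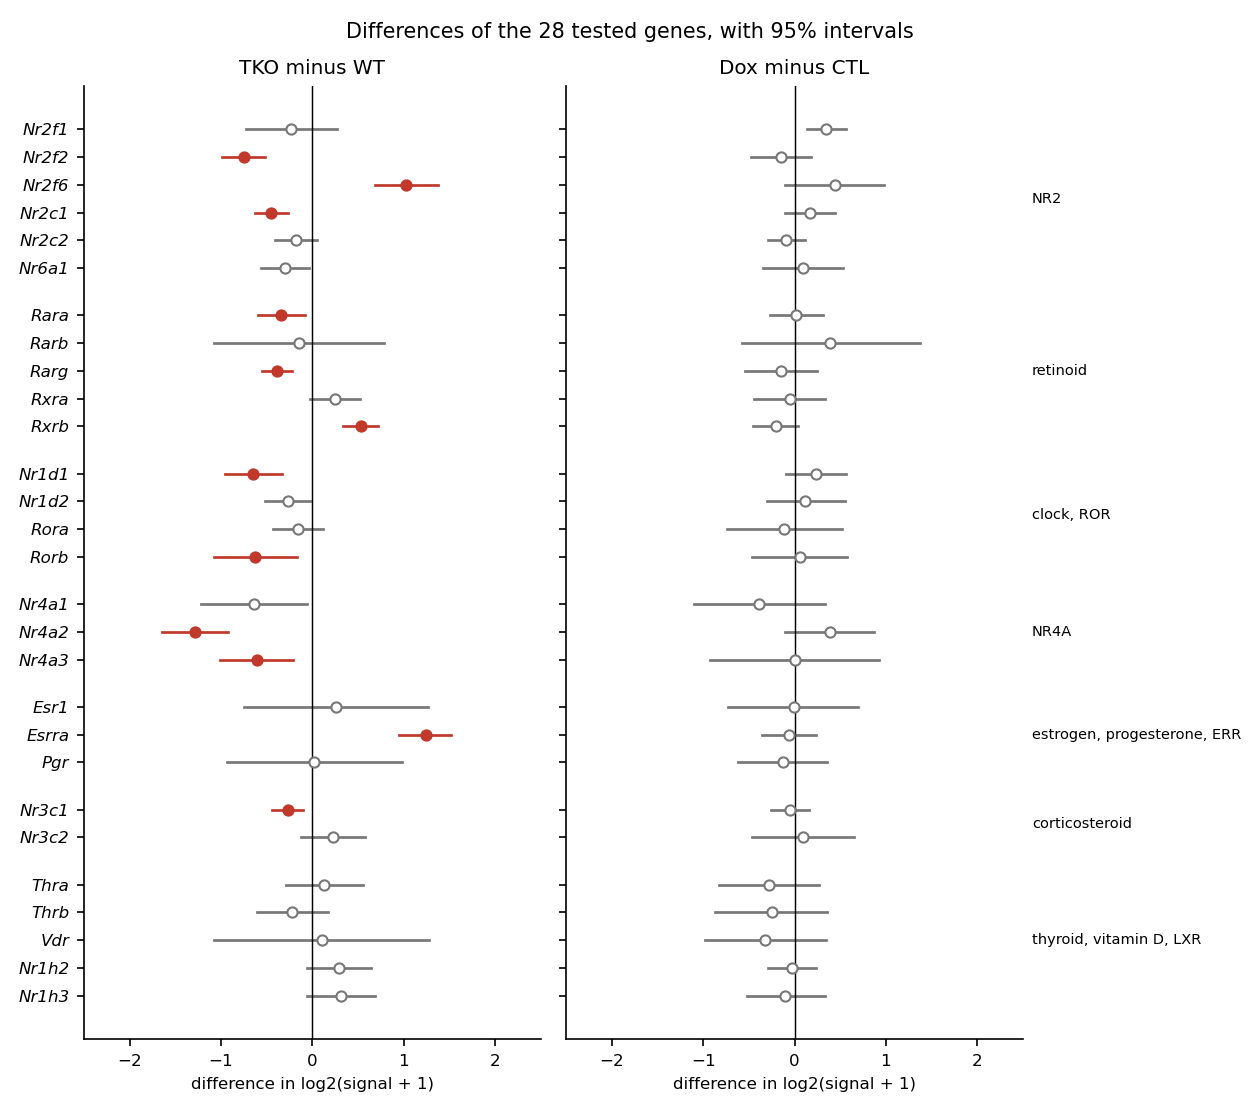
Differences in log2(signal + 1) with 95% intervals for the 28 tested receptor genes, 3 cultures a group. TKO minus WT is on the left and Dox minus CTL on the right. Intervals are from the fit without the replicate number as a block, so those on the right leave out the pairing. Filled red points passed at an adjusted p below 0.05: 12 on the left, from Esrra at 1.24 to Nr4a2 at -1.29, and 0 on the right.

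Among the NR2 orphan receptors, 2 close relatives moved in opposite directions. Nr2f2 is a COUP transcription factor known as a mesenchymal and venous identity factor. Its signal was 73.8, 82.3 and 76.9 in WT against 48.8, 39.8 and 49.0 in TKO. All TKO cultures lay below all WT cultures. The level fell to 0.590 of that in WT (log2 difference -0.75 ± 0.10 SE, limma adjusted p = 0.0015). Nr2f6, a COUP-related repressor studied mainly in lymphocytes, had 10.1, 13.6 and 15.1 in WT against 26.7, 29.2 and 25.4 in TKO, again without overlap, and rose 2.10-fold (1.03 ± 0.15, limma adjusted p = 0.002). Nr2f1, the third COUP factor, was at 17.6, 21.4 and 21.4 against 12.03, 21.96 and 18.5 and did not pass (-0.23 ± 0.21). Within TKO, replicate 1 gave its low value. The testicular receptor Nr2c1, a repressor that dimerises with Nr2c2, was at 28.3, 28.8 and 29.6 in WT against 22.7, 19.8 and 20.1 in TKO. It fell by 0.45 ± 0.07 on the log2 scale (limma adjusted p = 0.0036). Nr2c2 itself was at 70.3 to 74.3 and 56.4 to 72.5 (-0.18 ± 0.10, not passed). The germ cell nuclear factor Nr6a1 lay lower in every TKO culture (7.996, 6.88 and 7.21 against 5.51, 5.25 and 6.65) but did not pass (-0.30 ± 0.11, limma adjusted p = 0.062). Antisense genes overlap some of these: Ocel1 shares 1622 of the 2983 exon bases of Nr2f6, and B130024G19Rik 643 of those of Nr2f2. The library kit keeps the strand, but whether reads were counted by strand is not given in the sources used here. Ocel1 had a signal of 2.42 to 3.31 in WT and 2.46 to 3.48 in TKO (0.03 ± 0.14), far below Nr2f6.

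**Figure D3:**
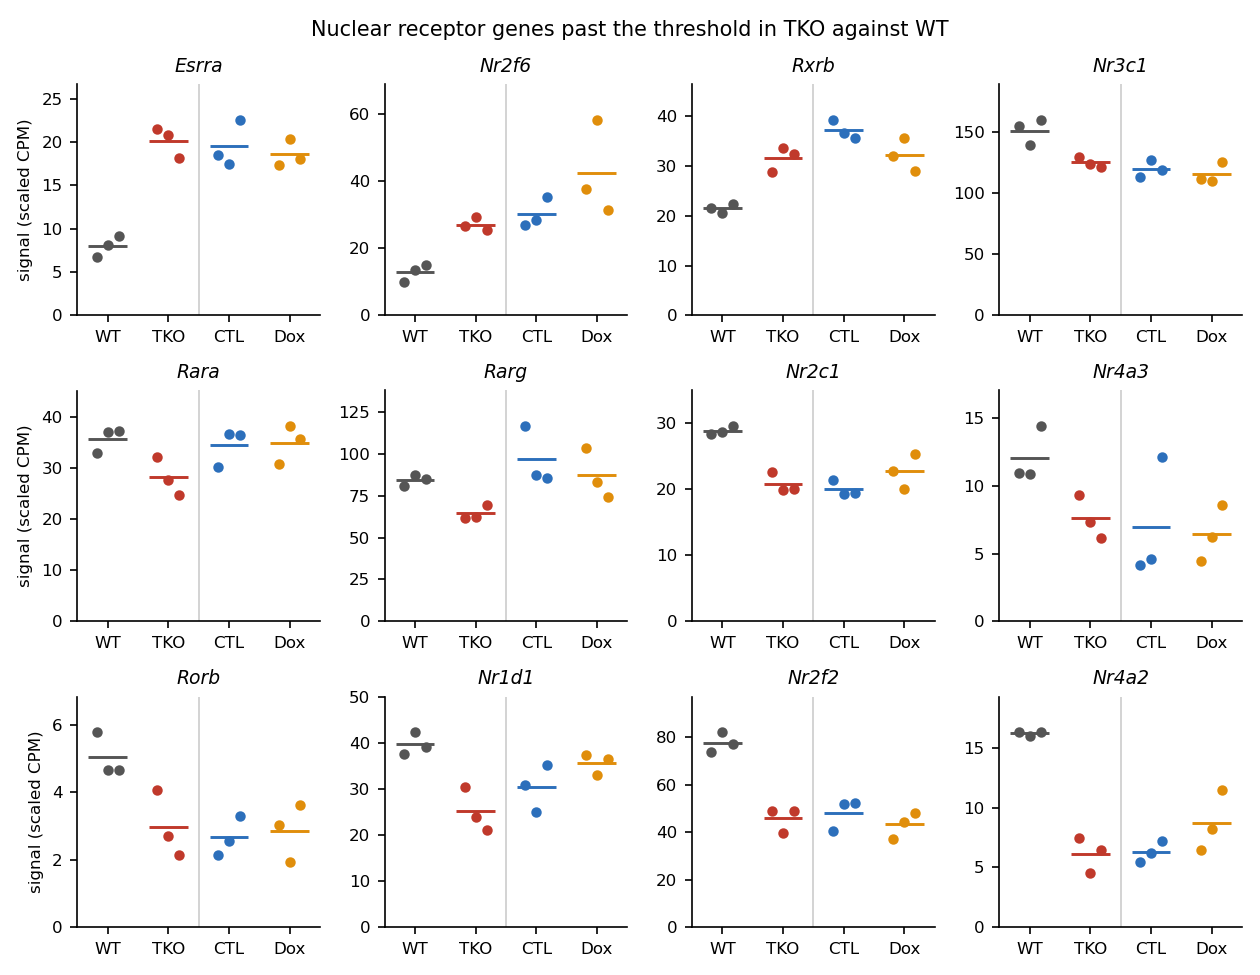
Signal (scaled CPM, axes from 0) of the 12 receptor genes that passed in TKO against WT, in each of the 12 libraries, with a bar at each group's mean. WT and TKO points do not overlap in these panels, while CTL and Dox points do. The grey line parts the tables that were normalised separately.

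Of the 5 retinoid receptors tested, Rarg and Rara fell, Rxrb rose, and Rarb and Rxra did not pass. Retinoic acid receptors (RARs) bind all-trans retinoic acid and act as dimers with a retinoid X receptor (RXR), which also partners the PPARs, liver X, thyroid and vitamin D receptors. Rarg, the most abundant RAR here, had 80.7, 87.3 and 85.2 in WT against 61.6, 62.4 and 69.3 in TKO, with no overlap, and fell by 0.39 ± 0.07 on the log2 scale (limma adjusted p = 0.0052). Rara had 32.9, 37.0 and 37.3 against 32.1, 27.6 and 24.7, and fell by 0.34 ± 0.11 (limma adjusted p = 0.041). TKO replicate 1 lay just under the lowest WT culture. The call of Rara ended without WT replicate 1, 2 or 3 or TKO replicate 2 or 3 (adjusted p = 0.056 to 0.13) and with library-size scaling (0.13). Rarb varied most: 6.48, 10.7 and 5.56 in WT against 3.99, 5.38 and 12.2 in TKO, with a difference of -0.15 ± 0.39. Its 3′ exons share 1793 of 5265 bases with the antisense gene Top2b, whose signal was 290 to 323 in WT and 179 to 212 in TKO. Rxrb, by contrast, rose 1.47-fold, from 21.7, 20.6 and 22.4 to 28.7, 33.6 and 32.5 (0.53 ± 0.08, limma adjusted p = 0.0027), with no overlap. Rxra was at 73.8, 70.2 and 73.1 against 101.9, 84.3 and 74.2. All TKO values of Rxra lay above those of WT, but it did not pass (0.25 ± 0.11, limma adjusted p = 0.12). Rxrg was near the floor, with 2 to 18 reads a library and a signal of 0.035 to 0.073 in WT and 0.153 to 0.227 in TKO.

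Genes that supply and clear retinoids were mixed. Of 17 on the list, 12 were tested, 2 rose and 2 fell, with a median of 0.18 against 0.00 for all genes. Among all genes tested, 23.2% rose and 22.7% fell. Crabp1, an intracellular retinoic acid carrier, fell by 1.47 ± 0.20 (limma adjusted p = 0.0018) and Dhrs3, which reduces retinal back to retinol, by 0.73 ± 0.22 (0.032). Aldh1a2, which makes retinoic acid from retinal, rose by 0.66 ± 0.13 (0.0076).

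Of the clock receptors and their ROR competitors, Nr1d1 and Rorb fell, and Nr1d2 and Rora did not pass. REV-ERBα, the product of Nr1d1, and REV-ERBβ, that of Nr1d2, bind heme and repress Arntl, which encodes the clock activator BMAL1, and the ROR receptors compete with them for the same DNA elements. Nr1d1 was at 37.7, 42.5 and 39.1 in WT against 30.5, 24.1 and 21.3 in TKO. It fell to 0.636 of the WT level (-0.65 ± 0.13, limma adjusted p = 0.008). Nr1d2 was also below WT in every TKO culture (78.7, 68.5 and 71.5 against 65.1, 52.1 and 63.7) but did not pass (-0.27 ± 0.10, limma adjusted p = 0.069). Rora was at 41.8 to 43.7 against 34.2 to 45.6 (-0.16 ± 0.11). Rorb, a ROR best known from brain and retina, was low, with 5.79, 4.65 and 4.65 in WT against 4.06, 2.71 and 2.14 in TKO (-0.63 ± 0.19, limma adjusted p = 0.034). Its call ended with the length and GC trend removed (-0.29, adjusted p = 0.26), without WT replicate 1, 2 or 3 and without TKO replicate 2 or 3 (0.067 to 0.11). Nr1d1 shares 263 exon bases with Thra on the other strand, and Thra did not pass.

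Of the 17 other clock genes, all of them tested, 1 rose and 6 fell, with a median of -0.21. Over all genes tested 45.8% passed, 23.2% as higher and 22.7% as lower. The activators Npas2 and Clock, partners of BMAL1, fell by 0.81 ± 0.09 (limma adjusted p = 0.00095) and 0.65 ± 0.12 (0.0053). Csnk1e, a kinase of the PER proteins, fell by 0.40 ± 0.06 (0.0029), while the related kinase Csnk1d rose by 0.32 ± 0.06 (0.0042). Arntl itself, named after its values were seen, was at 46.3, 44.8 and 36.9 in WT against 33.5, 24.1 and 29.1 in TKO and fell along with Nr1d1 (-0.55 ± 0.14, limma adjusted p = 0.018). Its call ended without WT replicate 1 or 2 (adjusted p of up to 0.069). With the length and GC trend removed, 3 of the 17 rose and 8 fell, and 4 passed in all without WT replicate 2. The cultures were not stated to have been synchronised or collected at a given clock time.

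The NR4A receptors Nr4a1, Nr4a2 and Nr4a3 are immediate-early genes, switched on within minutes by cAMP, calcium and growth signals, whose proteins act largely without a ligand. Nr4a2 (NURR1) showed the most negative difference of the family. Its signal was 16.3, 15.98 and 16.3 in WT, hardly varying, and 7.44, 4.57 and 6.43 in TKO. It fell to 0.380 of the WT level (-1.29 ± 0.15, limma adjusted p = 0.0012). Nr4a3 was at 10.96, 10.9 and 14.5 in WT against 9.31, 7.37 and 6.15 in TKO (-0.61 ± 0.17, limma adjusted p = 0.024). All TKO values lay below WT, yet the call of Nr4a3 ended without WT replicate 1, 2 or 3 or TKO replicate 2 or 3 (0.05 to 0.072), and with removal of the length and GC trend (0.073). Nr4a1 was at 45.2, 49.9 and 42.8 in WT against 44.3, 23.2 and 23.7 in TKO. TKO replicate 1 thus sat at the WT level while the other two were lower, and the gene did not pass (-0.64 ± 0.24, limma adjusted p = 0.068). Without TKO replicate 1 it passed (adjusted p = 0.0016).

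The 3 NR4A promoters share a dense run of one motif. The core of the cAMP response element, TGACG or its reverse CGTCA, which is bound by CREB, was counted in RefSeq promoters from 250 bases before to 50 after each start (GRCm38.p6). It occurred in 20.8% of all 32851 promoters, but 4 or more copies stood in only 76 of them (0.231%). Of the 33 member genes with a promoter in that table, those with 4 or more were exactly Nr4a1, Nr4a2 and Nr4a3, with 4 each. The number of copies was set after the promoters had been seen. The sequences are shown because these genes have the motif in common beside their early-response character; capitals mark the motif.
Nr4a1 promoter, chr15:101266596-101266895, plus strand: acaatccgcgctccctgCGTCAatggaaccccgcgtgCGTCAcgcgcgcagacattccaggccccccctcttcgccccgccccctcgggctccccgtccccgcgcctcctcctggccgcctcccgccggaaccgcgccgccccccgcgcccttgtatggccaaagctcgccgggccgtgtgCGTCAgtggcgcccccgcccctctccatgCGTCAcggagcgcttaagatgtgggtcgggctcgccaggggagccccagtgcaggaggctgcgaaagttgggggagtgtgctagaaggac
Nr4a2 promoter, chr2:57123954-57124253, minus strand: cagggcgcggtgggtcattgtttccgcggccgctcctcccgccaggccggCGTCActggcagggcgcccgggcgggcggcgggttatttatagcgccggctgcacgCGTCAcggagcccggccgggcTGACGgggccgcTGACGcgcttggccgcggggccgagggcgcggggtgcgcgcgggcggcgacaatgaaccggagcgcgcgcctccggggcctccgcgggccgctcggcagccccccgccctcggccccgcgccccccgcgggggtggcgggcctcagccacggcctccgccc
Nr4a3 promoter, chr4:48045055-48045354, plus strand: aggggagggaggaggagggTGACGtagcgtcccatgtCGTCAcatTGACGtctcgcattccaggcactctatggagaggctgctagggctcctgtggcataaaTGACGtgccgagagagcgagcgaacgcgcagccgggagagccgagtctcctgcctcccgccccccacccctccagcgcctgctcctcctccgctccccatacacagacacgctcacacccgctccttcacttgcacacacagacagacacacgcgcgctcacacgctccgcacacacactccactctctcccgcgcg
Of 56 other tested genes with 4 or more copies, 13 rose and 14 fell in TKO, with a median difference of 0.01, beside 23.2% higher and 22.7% lower over all genes tested. Whether the motif has a part in the NR4A differences was not tested. The full palindrome TGACGTCA, present in 1.8% of promoters, was found in 1 member, Nr6a1. The receptors' own recognition element AGGTCA or TGACCT was found in at least 1 promoter of 9 of the 33 genes, against 18.1% of the 27025 genes in the table (16.3% of all promoters). No match is evidence that a factor was bound in these cells.

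Esrra had the highest positive difference of the family. It encodes ERRα, an orphan receptor that works with the PGC-1 coactivators on genes of mitochondrial respiration. Its signal was 6.80, 8.12 and 9.15 in WT against 21.6, 20.8 and 18.2 in TKO. All TKO cultures lay above all WT cultures, and the rise was 2.52-fold (1.24 ± 0.12, limma adjusted p = 0.0006). It was smaller but still called with the length and GC trend removed (0.94 ± 0.09, adjusted p = 0.00051). Trmt112, which overlaps Esrra by 73 exon bases on the other strand, rose less (0.45 ± 0.12, limma adjusted p = 0.023). The related Esrrg was at 0.363 to 0.388 in WT and 0.189 to 0.255 in TKO, on 15 to 23 reads a library. PGC-1α and PGC-1β, encoded by Ppargc1a and Ppargc1b, are counted among the coactivators below.

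The estrogen receptor Esr1 and Pgr, a gene that estrogen receptor α is known to switch on, spread widely within groups. Esr1 was at 27.1, 34.4 and 44.4 in WT against 20.9, 69.8 and 49.4 in TKO (0.26 ± 0.42, limma adjusted p = 0.64). Pgr was at 87.9, 126.5 and 145.0 in WT against 62.6, 172.5 and 156.9 in TKO (0.02 ± 0.40, adjusted p = 0.97). For both genes TKO replicate 1 was the lowest of the 6 libraries and TKO replicate 2 the highest. The full order was the same for the 2 genes: TKO replicate 1, WT replicates 1, 2 and 3, TKO replicate 3, TKO replicate 2. In the transgenic cultures they again shared an order, from CTL replicate 3 at the bottom (24.1 for Esr1, 76.1 for Pgr) through Dox 3, Dox 1, CTL 1 and Dox 2 to CTL replicate 2 at the top (51.5 and 124.5). At the bottom of that order Pgr in CTL 3 and Dox 3 differed only in the second decimal. Among the 12373 genes tested in both tables, 58 others shared the order of Esr1 in the first table and 59 in the second, and Pgr alone in both. This pattern was chosen after the values were seen and both genes were read in the same libraries, so it is given as a description. Whether the makeup of the cultures has a part in it was not tested. Without TKO replicate 1, Esr1 passed as higher in TKO (limma adjusted p = 0.046) and Pgr did not (0.11).

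**Figure D4:**
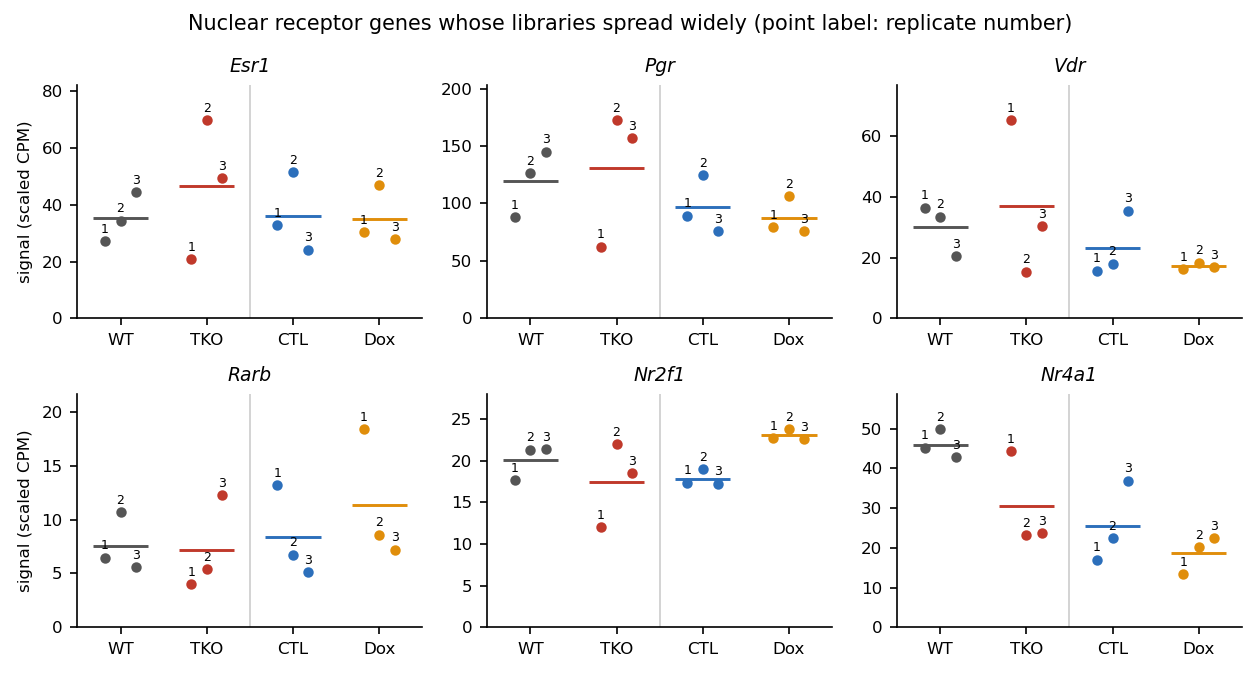
Signal (scaled CPM, axes from 0) of 6 receptor genes with wide spread or a library apart, in the 12 libraries; numbers are replicate numbers and bars are group means. TKO replicate 1 is lowest for Esr1 and Pgr and highest for Vdr, and sits at the WT level for Nr4a1. For Nr2f1 the Dox points lie above the CTL points.

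The corticosteroid receptors changed little. Nr3c1, the glucocorticoid receptor and the mediator of dexamethasone in adipogenic mixes, was abundant, at 154.8, 139.3 and 160.3 in WT against 130.0, 124.1 and 121.9 in TKO. The groups did not overlap and it fell by 0.27 ± 0.07 (limma adjusted p = 0.022). That call ended with the length and GC trend removed (-0.01, adjusted p = 0.96), with library-size scaling (0.16), and on leaving out replicate 1 (0.078) or 3 (0.078) of WT or replicate 3 of TKO (0.056). The mineralocorticoid receptor Nr3c2 was at the edge of the filter, at 1.04, 0.917 and 0.926 in WT against 1.78, 1.10 and 1.07 in TKO, all higher, and did not pass (0.23 ± 0.15).

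Of the 9 tested genes on the list of glucocorticoid receptor chaperones and ligand handling, 1 rose and 4 fell (median -0.02). Over all genes tested 45.8% passed. The list holds Nr3c1 itself, so the receptor described above is counted again among the 4 that fell. The co-chaperone Stip1 fell by 0.83 ± 0.08 (limma adjusted p = 0.00049), and the 2 cytosolic HSP90 genes, Hsp90aa1 and Hsp90ab1, each fell by 0.41 (SE 0.08 and 0.09, adjusted p = 0.0072 and 0.012). Hsd11b1, the enzyme that regenerates active glucocorticoid inside cells, rose by 1.31 ± 0.35 (0.022). Without WT replicate 1 or 2 only 3 of these 9 passed. Of 13 tested glucocorticoid-responsive genes 1 rose and 4 fell, with a median of 0.00, beside the same 45.8% of all genes. Ddit4 rose by 1.47 ± 0.18 (limma adjusted p = 0.0013). Klf9 fell by 0.55 ± 0.07 (0.0016), Dusp1 by 0.66 ± 0.11 (0.0043) and Errfi1 by 0.50 ± 0.10 (0.0064). Without TKO replicate 1, 8 of the 13 passed.

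None of the thyroid, vitamin D and liver X receptors passed in TKO. Thra was at 54.3, 57.3 and 64.8 in WT against 77.2, 71.2 and 48.3 in TKO (0.13 ± 0.18), with TKO replicate 3 below and the others above WT. Thrb was at 9.55 to 12.4 against 7.23 to 11.04 (-0.22 ± 0.16). The vitamin D receptor Vdr ran against Esr1 and Pgr: it was highest in TKO replicate 1 (65.3) and lowest in TKO replicate 2 (15.5), with 30.5 in TKO replicate 3 and 36.5, 33.6 and 20.6 in WT (0.10 ± 0.49). Of the oxysterol sensors, Nr1h2 (LXRβ) was at 33.2, 37.3 and 46.4 against 44.2, 55.6 and 43.3 (0.29 ± 0.15, limma adjusted p = 0.15). Nr1h3 (LXRα) was held between 3.83 and 3.90 in WT and was 5.94, 5.68 and 3.76 in TKO (0.31 ± 0.16, limma adjusted p = 0.15). TKO replicates 1 and 2, higher in Nr1h3, were also those with the higher adipocyte marker sum. Without TKO replicate 3, Nr1h3 passed (adjusted p = 0.0099).

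Targets of the liver X receptors moved both ways. All 12 on the list were tested, 3 rose and 3 fell, with a median of -0.09, beside 23.2% higher and 22.7% lower over all genes. Mylip, which encodes the LDL receptor degrader IDOL, fell by 0.83 ± 0.08 (limma adjusted p = 0.00049), the phospholipid enzyme Lpcat3 by 0.32 ± 0.06 (0.006) and the cholesterol exporter Abca1 by 0.45 ± 0.11 (0.015). Srebf1, the lipogenic regulator, rose by 0.71 ± 0.14 (0.0074). Without WT replicate 1, 3 of the 12 passed. Of 6 tested genes of thyroid hormone and vitamin D handling or response, only Klf9 passed, and the median was -0.08; without TKO replicate 2 there were 2.

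The coregulators that receptors recruit were mostly lower in TKO. Of 15 tested coactivators, 12 fell and 1 rose, with a median of -0.53, beside 22.7% lower and 23.2% higher over all genes tested. Ncoa6 fell by 1.34 ± 0.09 (limma adjusted p = 0.00027), the acetyltransferase gene Crebbp by 0.85 ± 0.07 (0.00034) and the arginine methyltransferase gene Carm1 by 0.53 ± 0.06 (0.0011). Prmt1, another arginine methyltransferase, rose by 0.77 ± 0.06 (0.0003). Ppargc1a and Ppargc1b, named as partners of ERRα after their values were seen, were among the 12 that fell (-0.68 ± 0.15 and -0.51 ± 0.14). Both were low, at 3.63 to 4.1 and 2.31 to 2.51 in WT. The call of Ppargc1a ended with the length and GC trend removed (limma adjusted p = 0.1). That of Ppargc1b ended with library-size scaling (limma adjusted p = 0.051) and with the replicate block (0.054). Of 12 corepressors 6 fell and 1 rose, with a median of -0.47. Gps2 fell by 0.90 ± 0.10 (limma adjusted p = 0.00089), Ncor1, which encodes the main platform for unliganded receptors, by 0.91 ± 0.11 (0.0011), Sin3a by 0.46 ± 0.06 (0.0019) and Tbl1x by 0.50 ± 0.08 (0.0031). Coactivator transcripts had a median length of 7043 bases and corepressor transcripts of 5420.5, longer than the median gene. With the length and GC trend removed, 10 coactivators fell and 1 rose, and 7 corepressors fell and 1 rose, with medians of -0.37 and -0.33. Ppard, a PPAR and so not a member here, fell by 0.39 ± 0.10 (limma adjusted p = 0.019).

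**Figure D5:**
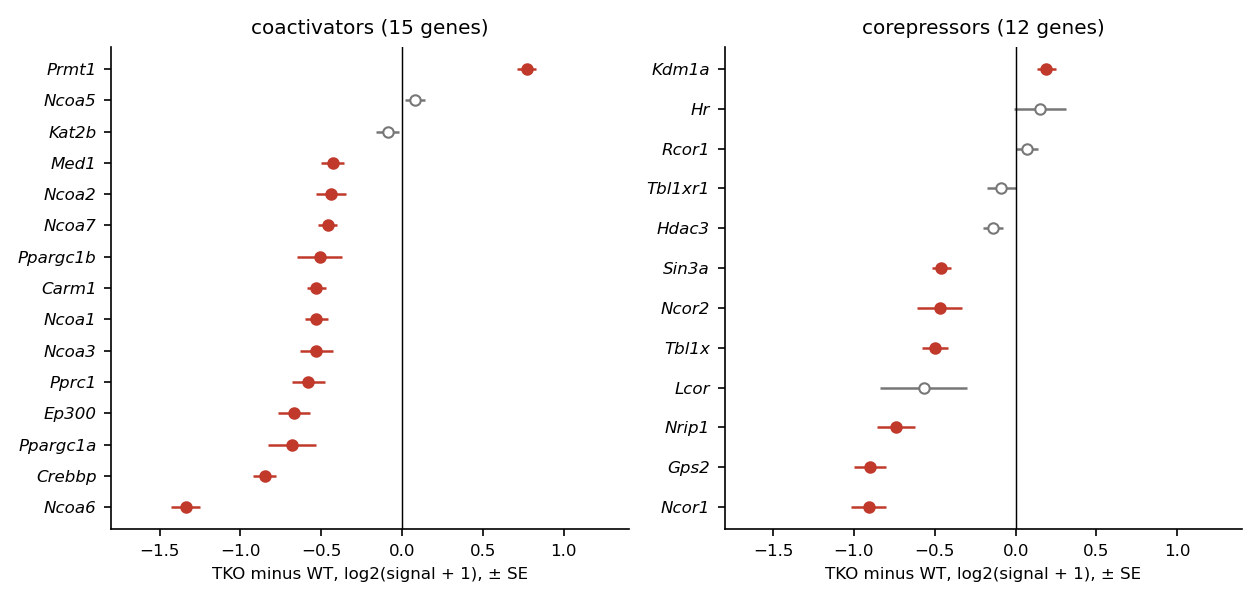
Differences in log2(signal + 1), TKO minus WT, with bars of 1 SE, for the tested coactivators and corepressors of nuclear receptors. Filled red points passed: 12 of 15 coactivators lie below 0 and passed, from Ncoa6 at -1.34, with Prmt1 at 0.77 on the other side, and 6 of 12 corepressors fell.

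Doxycycline induction of the transgene left no receptor past the threshold. Of the 28 members tested in Dox against CTL, 0 passed in limma, as did 0.0% of all 12634 genes, and at an unadjusted p below 0.05 there was 1 member and 748 genes in all. edgeR also called 0 genes and DESeq2 99, none of them a member. CTL and Dox cultures of the same number varied together, so the fit with the number as a block applies: it called 265 genes (2.1%, 0.562% higher and 1.54% lower) and 0 members. With the block, 8 members had an unadjusted p below 0.05 (28.6%), against 17.3% of all genes. In the authors' deposited table of this comparison, 0 listed members had a false discovery rate below 0.05.

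Nr2f1 was the only tested member whose CTL and Dox libraries did not overlap, against 12.2% of all genes tested. It was at 17.4, 18.97 and 17.3 in CTL and at 22.7, 23.8 and 22.6 in Dox, a tight and even step of 1.29-fold (0.35 ± 0.09), with a limma adjusted p of 0.60, and of 0.081 with the block. Its relative Nr2f2 was at 40.7, 51.9 and 52.2 against 37.3, 44.3 and 48.2, lower in each pair but not passed. Its difference was -0.15 (95% interval without the block -0.48 to 0.18). With the block the SE was 0.08 (limma adjusted p = 0.36). Nr2f6 was at 27.0, 28.4 and 35.3 against 37.8, 58.4 and 31.5, with Dox replicate 2 far above the rest (0.44 ± 0.23, limma adjusted p = 0.88). It was called with the block when replicate 3 was left out (limma adjusted p = 2.4e-08). That fit rests on pairs 1 and 2 alone, whose differences were 0.47 and 1.01, too few to measure their spread well. Pair 3 ran the other way (-0.16). Rarb varied more between numbers than between treatments, at 13.2, 6.73 and 5.14 in CTL and 18.4, 8.59 and 7.20 in Dox, higher in each pair. Its difference was 0.39 ± 0.41 without the block (limma adjusted p = 0.98) and 0.39 ± 0.10 with it (0.092).

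Differences within pairs had the same sign in all 3 pairs for 11 of the 28 members (39.3%), the same share as over all genes (39.5%). Nr1d1, Nr2c1, Nr2f1, Nr4a2 and Rarb were higher in each pair, and Nr2f2, Nr4a1, Rarg, Rxrb, Thra and Thrb lower. With the block and the length and GC trend removed together, 931 genes passed, among them Rarb as higher (adjusted p = 0.039) and Nr4a1 (0.036), Rxrb (0.044) and Thra (0.016) as lower. Without replicate 2, the block called 1534 genes and 6 members, Nr2f1 and Rarb as higher and Nr4a1, Rxrb, Thra and Vdr as lower. Without replicate 3 it called 1 member (Nr2f6), and without replicate 1, 0. Vdr was even in Dox (16.2, 18.4 and 17.0) and high in 1 control, CTL replicate 3 (35.5 against 15.7 and 18.03). That culture also had the highest Nr4a1 (36.9) and Nr4a3 (12.2) of its group, and the lowest Esr1 and Pgr.

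Set side by side, the 12 members that passed in TKO had the opposite sign in Dox for 7 (58.3%), against 46.8% of the 5695 genes called in TKO and tested in both. Esrra, at 1.24 in TKO, was -0.06 in Dox (95% interval -0.36 to 0.23). Nr4a2 was -1.29 in TKO and 0.39 in Dox (-0.10 to 0.87), and Nr1d1 -0.65 and 0.23 (-0.09 to 0.56). Rxrb was 0.53 and -0.20 (-0.45 to 0.04). Nr2f6 had the same sign in both, 1.03 and 0.44 (-0.10 to 0.98), as did Nr2f2 (-0.75 and -0.15). These intervals are from the fit without the block and include 0. With the block the same differences had an SE of 0.12 for Nr4a2 (unadjusted p = 0.0096, limma adjusted p = 0.14), 0.09 for Nr1d1 (0.031, adjusted 0.24), 0.17 for Nr2f6 (0.031, adjusted 0.24) and 0.09 for Rxrb (0.045, adjusted 0.28). None of these passed after adjustment. Within pairs, Nr1d1, Nr2c1 and Nr4a2 were higher and Rxrb lower with doxycycline in all 3 pairs, each against its direction in TKO. Nr2f2 and Rarg were lower in all 3 pairs, the same direction as in TKO. Pairs of 1 sign were as frequent among the tested members (39.3%) as among all genes (39.5%). For the 4 tested members with a miR-26 seed match, Dox differences with the block were Rorb 0.06 ± 0.15, Esr1 -0.01 ± 0.09, Pgr -0.13 ± 0.08 and Nr3c1 -0.05 ± 0.08, with adjusted p of 0.42 to 0.96 in limma.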

How the data were processed

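RNA-seq of 12 cultures was used in 2 deposited tables, each with 6 libraries. Per the labels, libraries were made with a stranded mRNA kit from total RNA. The submitters' processing notes name TopHat2 2.0.12, featureCounts 1.4.6, StringTie 1.2.2 and edgeR 3.8.6 and the builds GRCm38 and mm10. The strand setting of the counting is not given in the sources used here. The deposited signal is a read count as CPM, scaled by 1 factor per library: dividing by its smallest step gave whole reads within 0.1 in every library. The authors' own comparisons, given as log2 fold changes with p-values and false discovery rates, were used only where named; the likelihood ratio score that the authors deposited beside them was not used.

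Genes whose signal reached 1 in 3 or more of 6 libraries were tested on log2(signal + 1) with limma 3.58.1 (R 4.3.3), trended variance, Benjamini-Hochberg adjustment over all genes of a table and a threshold of 0.05; each table was fitted alone. 95% intervals come from the same fit. Alternatives were a pseudocount of 0.25, no filter, library-size scaling, median centring, edgeR 4.0.16 and DESeq2 1.42.0 on the recovered reads, removal of the length and GC trend, a replicate block, the block with trend removal, and leaving out each library. The block with a replicate number left out was added after the data were seen. Same-numbered CTL and Dox cultures deviated together (correlations of 0.86, 0.58 and 0.74), so the numbers were taken to pair them; the pairing comes from this check, not from a label. The columns of Dox replicates 2 and 3 carry the same library suffix and were told apart by replicate number alone.

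On simulated data with 200 changed genes, all 200 were recovered in each comparison with 9 to 12 false calls. The changed genes were well expressed and shared a single known size of change. Variation was fixed and the same for every gene, without differences in cell makeup between cultures. Recovery of smaller differences, such as those of the receptors in Dox against CTL, was not simulated. Gene IDs matched GENCODE vM21 for 99.8% and 99.9%. The members and the other 16 gene lists were chosen with earlier results of these data known. Library values are given for members that passed, for Nr2f2 and for members whose groups did not overlap; other values were added for reading. From other lists up to 4 genes with the smallest p are named. Some other genes are not reported here.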

Additional observations from a re-analysis of the deposited data

How the results depend on the processing

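In TKO against WT, all 12 receptors that passed kept their direction in all 15 alternatives, and 7 of them passed in each. Leaving out each library gave 3938 to 5723 called genes, 8 to 15 called receptors, 3 to 6 higher and 5 to 11 lower. The same gave 3 to 6 called LXR targets, 4 to 9 clock genes and 4 to 8 glucocorticoid targets. It gave 3 to 6 genes of the glucocorticoid receptor chaperone list, which holds Nr3c1. For other nuclear receptors it gave 1 to 2, and for genes of thyroid and vitamin D handling 1 to 2. With the length and GC trend removed, 11 clock genes and 1 other nuclear receptor passed, and 1 of the latter with library-size scaling. DESeq2 called 11 clock genes and 8 glucocorticoid targets. Together with the replicate block, trend removal called 2 retinoid genes, 3 LXR targets and 1 other nuclear receptor. Signs of receptors that did not pass turned with trend removal, with and without the block: Nr1h2 -0.03, Nr2c2 0.05, Rora 0.22, Thra -0.12 and Thrb 0.01. Median centring gave Pgr -0.03. Without each library, the range crossed 0 for Esr1 (-0.10 to 0.75), Nr2f1 (-0.40 to 0.01), Pgr (-0.24 to 0.48), Rarb (-0.56 to 0.14) and Vdr (-0.42 to 0.59). Same-numbered WT and TKO cultures did not deviate together (correlations of 0.45, -0.13 and -0.29). The replicate block there called 5101 genes and 11 receptors, 3 higher and 8 lower, gaining Nr1d2 (adjusted p = 0.045) and losing Nr4a3 (0.056) and Rara (0.084).

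In Dox against CTL, DESeq2 called 99 genes, the replicate block 265, and the block with trend removal 931, with 4 receptors, 1 higher and 3 lower. The block without replicate 1, 2 or 3 called 134, 1534 and 591 genes and 0, 6 and 1 receptors, of which 0, 2 and 1 were higher and 0, 4 and 0 lower. Among the lists, the block called 1 retinoid gene and 1 glucocorticoid target and DESeq2 1 glucocorticoid target and 1 LXR target. The block with trend removal called 2 retinoid genes, 2 glucocorticoid receptor chaperones, 2 glucocorticoid targets, 1 LXR target, 1 clock gene and 1 coactivator. Differences near 0 changed sign: Nr4a3 was 0.01 with a pseudocount of 0.25 and Rara -0.01 with trend removal, with and without the block. Ranges without each library crossed 0 for Esr1 (-0.26 to 0.27), Esrra (-0.13 to 0.04), Nr1h2 (-0.11 to 0.05), Nr1h3 (-0.19 to 0.07), Nr3c2 (-0.06 to 0.29), Nr4a3 (-0.25 to 0.43), Nr6a1 (-0.01 to 0.26), Pgr (-0.29 to 0.06), Rara (-0.07 to 0.10), Rora (-0.37 to 0.10), Rorb (-0.08 to 0.24), Rxra (-0.19 to 0.07) and Vdr (-0.53 to 0.03). With the block and a replicate left out they did so for Esr1 (-0.12 to 0.05), Esrra (-0.20 to 0.06), Nr1h2 (-0.18 to 0.09), Nr1h3 (-0.25 to 0.07), Nr3c1 (-0.12 to 0.03), Nr3c2 (-0.09 to 0.41, and -0.04 without replicate 3), Nr4a3 (-0.19 to 0.22), Rorb (-0.09 to 0.23) and Vdr (-0.50 to 0.04). The causes were not tested. Depth limits the lowest receptors: Esr2, Esrrb, Esrrg and Rxrg had 1 to 23 reads a library.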

Other observations

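The CTL cultures, which had received no doxycycline, were set beside the WT and TKO means of the 12 receptors that passed in TKO against WT. The tables were normalised separately, no test was made and the comparison was chosen after the values were seen. On the log2(signal + 1) scale the CTL mean lay nearer to TKO than to WT for 10 of the 12 (83.3%), against 79.6% of the 5695 genes called in TKO and tested in both tables. Esrra was 3.17 in WT, 4.40 in TKO and 4.35 in CTL. Nr4a2 was 4.10, 2.82 and 2.86, and Nr2f2 6.30, 5.54 and 5.61. Rarg and Rara were the exceptions: Rarg was 6.42 in WT, 6.03 in TKO and 6.59 in CTL. Transgene, culture and sequencing of the 2 experiments cannot be told apart here.

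Esr1, Pgr, Vdr and Rarb varied widely within the TKO and WT groups. The SD of log2(signal + 1) among the TKO cultures was 1.01 for Vdr, 0.87 for Esr1, 0.80 for Pgr and 0.73 for Rarb, against a median of 0.14 over all genes tested. In WT they were 0.43, 0.35, 0.37 and 0.44, against a median of 0.09. Nr4a2 had an SD of 0.02 in WT and Nr3c1 one of 0.05 in TKO. In the CTL cultures Nr4a3 (0.75), Rarb (0.62) and Vdr (0.60) varied most of these. In the Dox cultures the SDs were 0.66 for Rarb, 0.39 for Esr1, 0.26 for Pgr and 0.09 for Vdr, against a median of 0.17.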
